A study of Mus musculus with 48 samples.

Results

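Sulfotransferases move a sulfate group from the donor PAPS (3′-phosphoadenosine 5′-phosphosulfate) onto steroids, bile acids, thyroid hormones, catecholamines and phenols, which makes these molecules more soluble and, for most hormones, inactive. The liver is a main site of the reaction, and in mice several of these enzymes are known to be more abundant in female than in male liver. The 7 genes described here, Sult1e1, Sult2a1, Sult2a2, Sult1d1, Sult1a1, Sult1b1 and Sult5a1, were selected by symbol from the 23732 genes of the deposited count table. All 7 were found in the table, and all 7 were among the 14836 genes that passed the filter on low counts. They were proposed because of how their levels compared between genotypes, so their KO minus WT differences in level, and how many of these passed a threshold in the fit over all genes, are descriptions and support nothing. Rhythms within a genotype, the difference between rhythms and relations across mice were tested.

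Poly-A RNA was sequenced from livers of 48 mice, all C57BL/6 males between 4 and 6 months of age. KO mice were Bmal1f/f-EsrCre animals, which carry floxed alleles of Bmal1 (Arntl in the table) and a tamoxifen-inducible Cre that is active in all tissues; WT in the labels means Cre- Bmal1f/f littermates. Both genotypes were gavaged with 5 mg of tamoxifen daily on 5 days, and after 7 more days they were held in constant darkness for 36 h and killed in darkness at ZT0, ZT4, ZT8, ZT12, ZT16 or ZT20 (zeitgeber time in hours). There were 4 KO and 4 WT mice at each time, which makes 24 mice of each genotype in 12 groups. Cre was present in KO mice alone, so an effect of Cre and the loss of Bmal1 cannot be told apart, and because the deletion was not limited to the liver, effects that arose in other organs are included.

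Libraries held 33562272 to 34035644 counts, and the mean correlation of a library with its group mates lay between 0.974 and 0.990, with the 4 farthest being KO mice 20 and 21 (ZT12) and 43 and 44 (ZT0). The gene-level count of Arntl pools all exons, so it can hold reads from exons outside the floxed segment and does not by itself show the deletion. Arntl averaged 14.2 ± 6.57 CPM (read counts scaled to library size) in KO livers and 23.5 ± 17.04 CPM in WT livers (SD, n = 24 each), but the averaged log2 difference was -0.05 ± 0.20 (SE, edgeR adjusted p = 0.916). At ZT8 it averaged 12.7 CPM in KO livers and 1.35 CPM in WT livers, a log2 difference of 3.23 (adjusted p = 0.000235). In KO livers it showed no called 24 h rhythm (log2 amplitude 0.18, edgeR adjusted p = 0.833), against a log2 amplitude of 2.03 in WT livers (adjusted p = 3.62e-07). The summed level of 9 hepatocyte markers was 19848 to 37928 CPM in KO livers and 18192 to 36036 CPM in WT livers. All 5 exocrine pancreas markers and 3 of 4 adipocyte markers (Adipoq, Plin1, Retn) averaged below 0.05 CPM. The summed level of the 4 adipocyte markers was 0 to 1.30 CPM in KO livers and 0.0300 to 1.32 CPM in WT livers. In bulk tissue, fewer cells of a type and less RNA per cell cannot be told apart. KO mice weighed 27.9 g ± 2.52 and WT mice 30.5 g ± 2.08 (SD, n = 24 each).

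Per kilobase of exon, Sult1a1, the main phenol sulfotransferase, had the highest level of the 7 genes in both genotypes, at 324 ± 72.6 CPM per kilobase in KO livers and 250 ± 62.6 in WT livers (SD, n = 24 each). Sult1d1, which sulfates catecholamines in mice, came next with 84.1 ± 18.9 CPM per kilobase in KO livers and 58.7 ± 14.1 in WT livers. In KO livers Sult1d1 was followed by Sult2a2 at 26.0 ± 21.5 CPM per kilobase, then Sult1b1 (22.1 ± 4.13), Sult5a1 (13.0 ± 3.57), Sult2a1 (12.0 ± 12.2) and Sult1e1 (7.63 ± 21.02). Of these neighbours Sult1b1 and Sult5a1 differed by more than 1 SD, while Sult2a2 and Sult1b1, Sult5a1 and Sult2a1, and Sult2a1 and Sult1e1 did not. In WT livers the order went on with Sult1b1 (18.5 ± 3.68 CPM per kilobase), Sult5a1 (10.8 ± 2.96), Sult2a2 (2.65 ± 3.40), Sult2a1 (1.04 ± 1.26) and Sult1e1 (0.153 ± 0.143). The neighbours Sult2a2, Sult2a1 and Sult1e1 lay within 1 SD of each other in WT livers, while the 4 genes above them were separated by more than that.

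**Figure D1:**
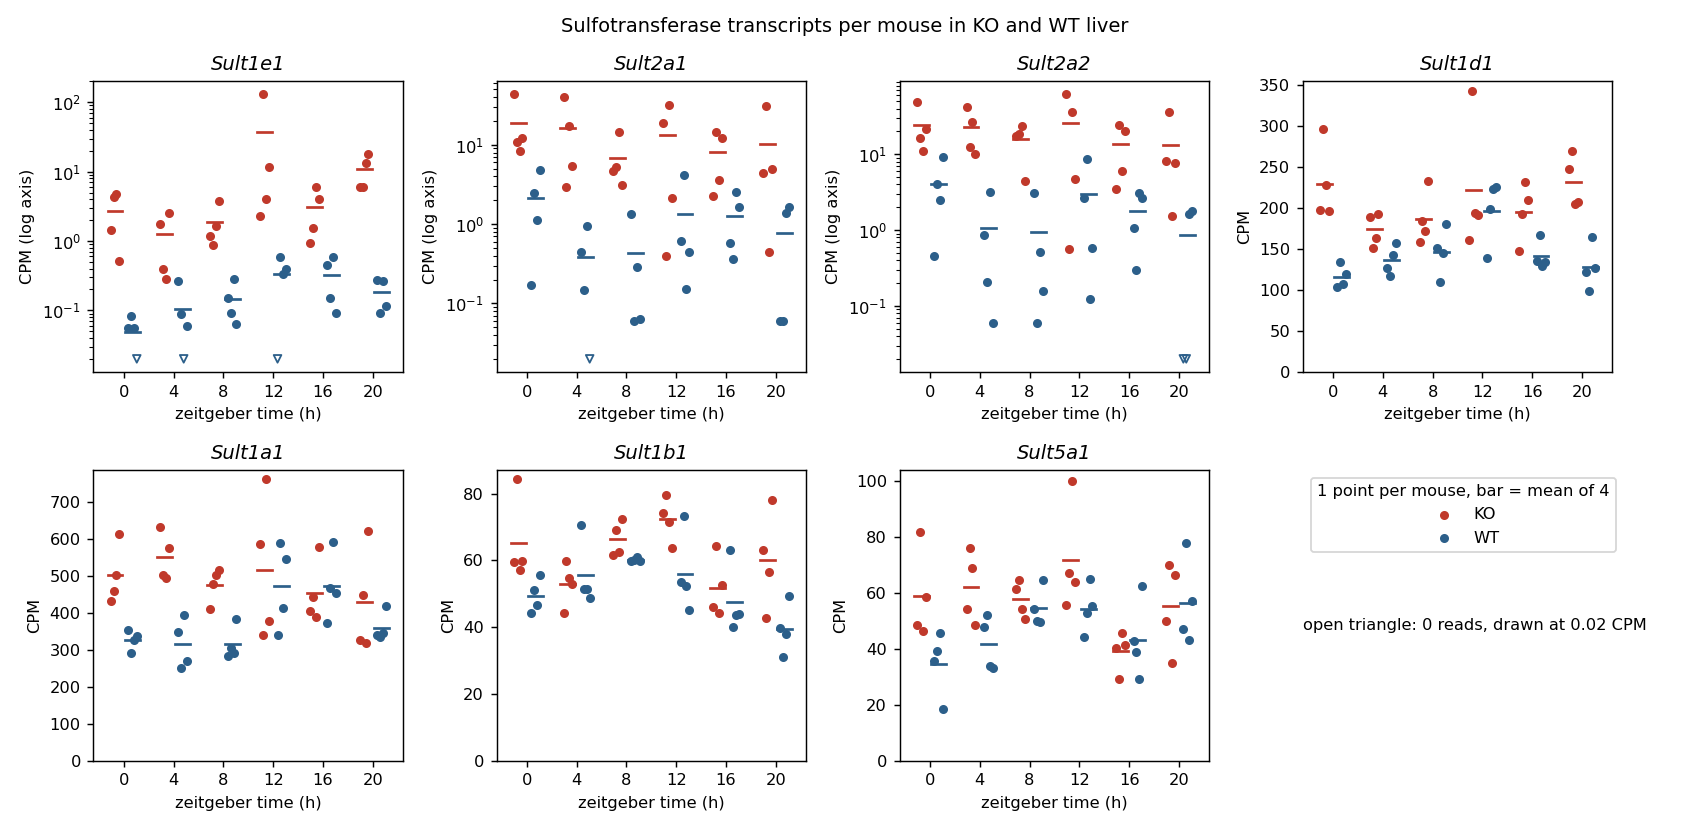
Level of each of the 7 genes in CPM by zeitgeber time, 1 point per mouse (KO left in red, WT right in blue, horizontal bar for the mean of 4 mice); the panels of Sult1e1, Sult2a1 and Sult2a2 have a log axis and open triangles for mice with 0 reads. KO and WT points of Sult1e1 are apart at all 6 times, and 1 KO mouse at ZT12 reaches 130 CPM.

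Averaged over the 6 times, Sult1e1, Sult2a1 and Sult2a2 were far higher in KO than in WT livers, Sult1d1, Sult1a1, Sult1b1 and Sult5a1 by less than 1 log2 unit. The median of the 7 log2 differences was 0.53, against 0.001 over all genes tested. In the fit over all genes with edgeR's quasi-likelihood test, 6 of the 7 lay past an adjusted p of 0.05, called here, each with the higher level in KO. Over all 14836 genes tested, 8.86% were called in this comparison, 4.94% as higher and 3.92% as lower in KO; because the 7 were chosen on this contrast, nothing is read from their count or their median. At ZT0 the 4 KO mice lay above the 4 WT mice for all 7 genes, where 3.04% of all tested genes did so. The same held for 4 of the 7 at ZT4 (7.45% of all genes) and 5 at ZT8 (7.35%). It held for 1 gene, Sult1e1, at ZT12 (5.68%), and for 2 genes each at ZT16 (7.02%) and ZT20 (4.66%). As a description with the same limit, 13 of the 42 pairs of gene and time lay past that threshold with the higher level in KO: 3 each at ZT4 and ZT8, 2 each at ZT0, ZT12 and ZT20, and 1 at ZT16. Of all genes tested, 1.06% were called higher in KO at ZT0 and 0.647% at ZT20; the shares were 1.9% for ZT4, 3.78% for ZT8, 6.59% for ZT12 and 2.6% for ZT16.

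**Figure D2:**
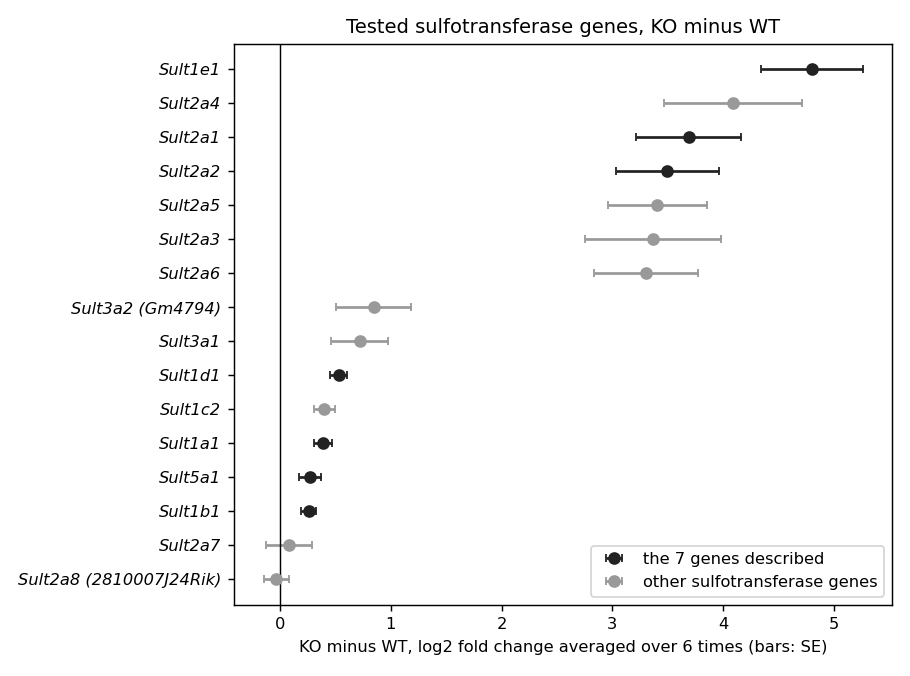
KO minus WT as log2 fold change averaged over 6 times, with its SE, for the 16 sulfotransferase genes that were tested; black points are the 7 genes described and grey points the other family members. Sult1e1 and 6 Sult2a genes lie above 3, while Sult2a7 and Sult2a8 lie near 0.

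Sult1e1 (ENSMUSG00000029272, mm9 chromosome 5, 88004993 to 88020636) encodes estrogen sulfotransferase, which inactivates estradiol. At ZT0 its level was 1.45, 4.27, 4.69 and 0.512 CPM in KO livers, against 0.0564, 0.0837, 0.0550 and 0 CPM in WT livers. At ZT12 it was 2.33, 130, 4.09 and 11.5 CPM in KO livers and 0, 0.596, 0.337 and 0.391 CPM in WT livers. The highest value, in KO mouse 20, came from 3977 reads and was more than 10 times the next KO value at ZT12. At ZT20 the KO livers had 6.06, 5.96, 13.2 and 17.8 CPM and the WT livers 0.274, 0.0912, 0.262 and 0.116 CPM. The genotypes did not overlap at any of the 6 times. The smallest gap was at ZT4, where KO livers had 1.76, 0.398, 0.279 and 2.57 CPM and WT livers 0.266, 0.0887, 0 and 0.0597 CPM. At ZT8 and ZT16 KO livers lay between 0.875 and 6.02 CPM and WT livers between 0.0635 and 0.597 CPM.

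Over all times Sult1e1 had a median of 3.15 CPM in KO livers and 0.103 CPM in WT livers, and 21 of 24 KO mice were above the highest WT mouse. WT libraries held 0 to 20 reads of Sult1e1, so counting error is a large part of their spread and the size of any fold rests on few WT reads. A library with 0 reads of Sult1e1 allows up to 0.0779 to 0.0867 CPM (3 counts). For libraries with 0 reads of Sult2a1 or Sult2a2 this is 0.0895 to 0.0913 CPM. These limits cover counting error only. KO minus WT averaged 4.80 ± 0.46 on the log2 scale (SE), from 3.27 at ZT16 to 6.80 at ZT12. Without KO mouse 20 the average was 4.36.

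Sult1e1 varied over the day in KO livers, with an adjusted p of 0.000983 by edgeR for differences among the 6 times, where 0.91% of all genes were called. The 2 highest KO means were 37.1 ± 62.3 CPM at ZT12 and 10.8 ± 5.81 CPM at ZT20, and the lowest was 1.25 ± 1.10 CPM at ZT4 (SD, n = 4 each). The 24 h fit gave a log2 amplitude of 2.14 ± 0.39 (SE) with a peak at ZT14.9 (edgeR adjusted p = 0.0336, with 0.984% of all genes called). At ZT16, the sampled time nearest that peak, the KO mean was 3.14 ± 2.35 CPM (SD, n = 4). This was below the means at ZT12 and ZT20, so the sampled means do not show a peak there. In WT livers the fitted log2 amplitude was 1.18 ± 0.84 (adjusted p = 0.419). The KO and WT rhythms were not shown to differ (adjusted p of the difference = 0.747). Without KO mouse 20 the KO amplitude was 1.29 (adjusted p = 0.0643). Differences among times in KO livers had an adjusted p of 0.0468 without this mouse; with cage as a random block in limma voom it was 0.069, and the adjusted p of the 24 h rhythm was 0.213.

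**Figure D3:**
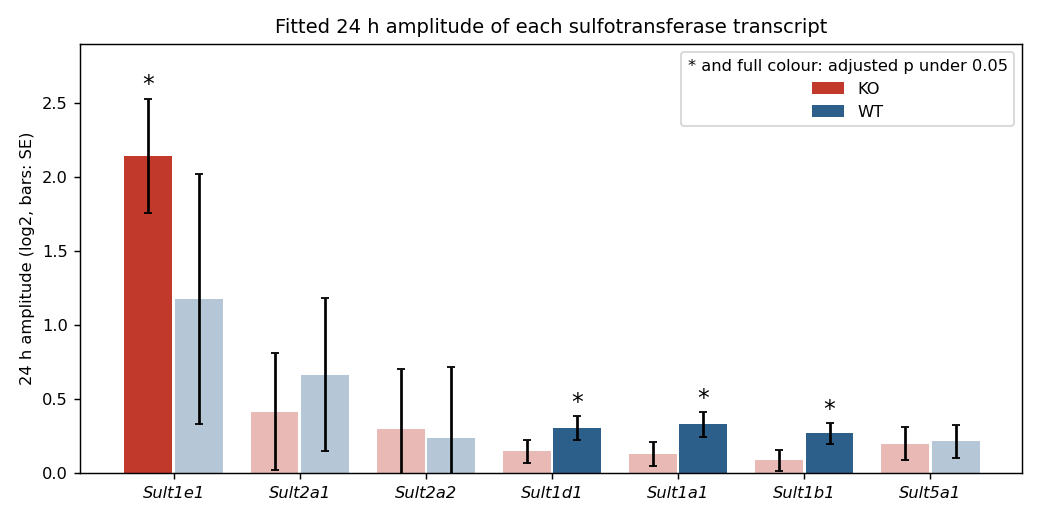
Fitted 24 h amplitude on the log2 scale (distance from mean to peak) with its SE for the 7 genes, KO left in red and WT right in blue; full colour and a star mark an adjusted p under 0.05, and bars that would reach below 0 are cut at 0. Only Sult1e1 is starred in KO livers (2.14), and Sult1d1 (0.30), Sult1a1 (0.33) and Sult1b1 (0.27) are starred in WT livers.

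Sult2a1 (ENSMUSG00000078798, mm9 chromosome 7, 14381601 to 14422759) and Sult2a2 (ENSMUSG00000070811, 14318855 to 14364985) encode hydroxysteroid sulfotransferases that act on dehydroepiandrosterone and bile acids, and they lie side by side in a cluster of Sult2a genes. Aligned transcripts of the 2 genes were identical at 97.6% of 739 bases in GENCODE M21. For Sult2a1 and Sult2a5 this was 94.6% of 1020 bases. The stretch below is the 90-base coding window with the fewest differences among Sult2a1, Sult2a2 and Sult2a5. Because it was picked in this way, it shows these copies as closer than they are over their whole length. It also shows where Sult2a7 parts from them. Capitals mark the positions that differ among the 4 genes.
Sult2a1: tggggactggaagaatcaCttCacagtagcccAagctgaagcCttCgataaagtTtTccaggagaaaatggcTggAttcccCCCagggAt
Sult2a2: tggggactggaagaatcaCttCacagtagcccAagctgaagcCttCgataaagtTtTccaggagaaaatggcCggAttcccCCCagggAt
Sult2a5: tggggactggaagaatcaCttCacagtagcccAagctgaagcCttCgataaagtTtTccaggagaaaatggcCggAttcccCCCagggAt
Sult2a7: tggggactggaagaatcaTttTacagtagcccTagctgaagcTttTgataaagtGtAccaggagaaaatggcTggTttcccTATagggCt
Over these 90 bases Sult2a2 and Sult2a5 each differed from Sult2a1 at 1 position and Sult2a7 at 12. Of all 50-base windows of the transcripts, 33.2% in Sult2a1 and 62.1% in Sult2a2 were also present in another gene, so reads can be shared within the cluster and the values of its single genes are uncertain. For Sult1e1, Sult1d1 and Sult1b1 the share was 0%, for Sult5a1 1.13% and for Sult1a1 6.58%. With 100-base windows the share was 11.4% in Sult2a1 and 34.6% in Sult2a2. How far reads are shared depends on their length, which is not given here.

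Sult2a1 at ZT0 stood at 43.5, 10.7, 8.31 and 12.2 CPM in KO livers, against 0.169, 2.45, 1.13 and 4.76 CPM in WT livers. At ZT4 it stood at 39.8, 2.95, 17.2 and 5.47 CPM in KO livers and at 0.443, 0.148, 0.943 and 0 CPM in WT livers. At ZT12 it was 18.9, 0.393, 31.4 and 2.17 CPM in KO livers and 0.607, 4.17, 0.153 and 0.452 CPM in WT livers. The genotypes were apart at ZT0, ZT4 and ZT8 and overlapped at ZT12, ZT16 and ZT20. KO mice 20 and 24 lay within the WT range at ZT12, and at ZT20 mouse 38 did (0.442 CPM, from 14 reads). Over all times the KO minus WT difference averaged 3.69 ± 0.48 on the log2 scale (SE), from 2.68 at ZT16 to 5.38 at ZT4. Mean levels were 12.3 ± 12.4 CPM in KO livers and 1.06 ± 1.29 CPM in WT livers (SD, n = 24 each).

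Sult2a2 at ZT0 had 48.6, 16.3, 11.2 and 21.6 CPM in KO livers and 0.451, 4.02, 2.47 and 9.33 CPM in WT livers. At ZT16 it had 3.50, 24.6, 5.96 and 20.4 CPM in KO livers and 1.07, 0.300, 3.11 and 2.69 CPM in WT livers. The genotypes were apart at ZT0, ZT4, ZT8 and ZT16, and overlapped at ZT12, where KO mice 20 and 24 had 0.557 and 4.68 CPM and 1 WT mouse 8.76 CPM, and at ZT20, where KO mouse 38 had 1.55 CPM. KO minus WT averaged 3.49 ± 0.46 on the log2 scale (SE), and mean levels were 19.3 ± 15.9 CPM in KO livers and 1.96 ± 2.52 CPM in WT livers (SD, n = 24 each). No 24 h rhythm of Sult2a1 or Sult2a2 was called in either genotype (edgeR adjusted p from 0.576 to 0.921).

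Mice of the same genotype and time differed in Sult2a1 and Sult2a2 far more than in most genes. The SD within groups was 1.85 log2 units for Sult2a1 in KO livers and 1.77 in WT livers, and for Sult2a2 1.70 in KO livers and 2.15 in WT livers. The median over all genes tested was 0.221 in KO livers and 0.190 in WT livers. Sult1e1 had 1.503 in KO livers and 0.96 in WT livers, and the other 4 genes had 0.23 to 0.38 in either genotype. The 2 Sult2a genes varied together from mouse to mouse: after removal of group means, Pearson's r of log2 CPM was 0.947 over 24 KO mice and 0.970 over 24 WT mice, with Spearman's rho of 0.948 in KO and 0.963 in WT. The two-sided permutation p was 1e-05 in each genotype, the smallest that 100000 permutations can give, and 0.00028 after adjustment over the 56 relations computed. Without the 2 mice farthest from the median of Sult2a1, r was 0.929 in KO and 0.962 in WT. Cage names of group-housed mice begin with 1 letter for ZT4 and ZT8, another for ZT12 and ZT16 and another for ZT20 and ZT0, and single mice carry none. With all mice split by these pairs of times (8 of each genotype in each), r was 0.821, 0.979 and 0.993 in KO livers and 0.980, 0.939 and 0.984 in WT livers. Reads shared between the copies can raise this correlation; their part in it was not tested.

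**Figure D4:**
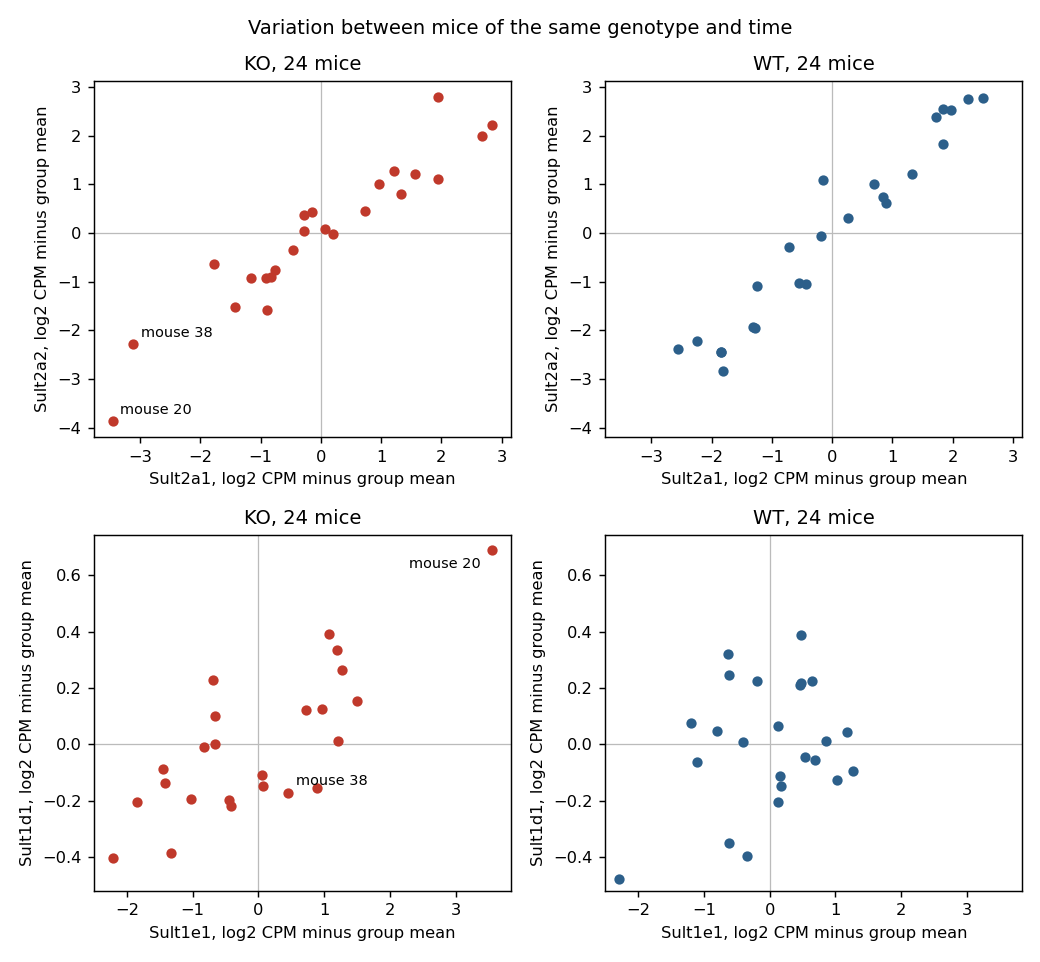
Deviation of log2 CPM from the mean of the mouse's own group, 1 point per mouse, for Sult2a1 against Sult2a2 (top) and Sult1e1 against Sult1d1 (bottom), KO on the left and WT on the right. The Sult2a pair falls along a line in both genotypes (r = 0.947 in KO and 0.970 in WT); Sult1e1 and Sult1d1 move together in KO (r = 0.775), with mouse 20 at the upper end.

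Sult2a3, Sult2a4, Sult2a5 and Sult2a6 were called higher in KO livers, by 3.36 ± 0.61, 4.09 ± 0.62, 3.40 ± 0.45 and 3.30 ± 0.47 on the log2 scale (SE), with edgeR adjusted p of 0.000212, 2.23e-05, 1.10e-06 and 5.25e-06. Summed over WT livers, Sult2a3 had 41 reads and Sult2a4 had 13, against 408 and 198 in KO livers. No WT library exceeded 0.357 CPM of Sult2a3 or 0.139 CPM of Sult2a4. These 2 genes passed the filter on low counts largely through KO libraries. A call as higher was therefore close to fixed for them, and nothing is read from it. Sult2a7 had 0.950 ± 0.409 CPM in KO livers and 0.919 ± 0.553 CPM in WT livers (SD, n = 24 each), a log2 difference of 0.09 ± 0.21 (adjusted p = 0.845). It held 2.27% of the summed reads of Sult2a1 to Sult2a7 in KO livers and 18.2% in WT livers. Across KO mice, r with Sult2a1 was 0.855, 0.916, 0.983 and 0.984 for Sult2a3 to Sult2a6 and -0.33 for Sult2a7. Across WT mice the values were 0.690, 0.600, 0.962 and 0.945, and 0.210 for Sult2a7. Those of Sult2a3 and Sult2a4 rest on few WT reads, so their lower r does not show weaker shared variation in WT. These genes share sequence to differing degrees: Sult2a7 is 81.5% identical to Sult2a1 and has no 50-base window in common with another gene, while 34.5% of the windows of Sult2a5 recur elsewhere.

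Among the other family members, Sult1c2 was higher in KO livers by 0.40 ± 0.10 (SE, edgeR adjusted p = 0.00484), at 5.91 ± 1.14 CPM in KO livers and 4.60 ± 1.57 CPM in WT livers (SD, n = 24 each). Its 24 h rhythm was not called in KO livers (log2 amplitude 0.04, adjusted p = 0.957) and was called in WT livers (log2 amplitude 0.52, adjusted p = 9.22e-05), and the difference between the rhythms was called (adjusted p = 0.00610). Sult2a8, listed as 2810007J24Rik, had 694 ± 265 CPM in KO livers and 704 ± 178 CPM in WT livers (SD, n = 24 each), a log2 difference of -0.03 ± 0.11 (adjusted p = 0.907). Sult3a1 differed by 0.72 ± 0.26 (adjusted p = 0.0733) and Sult3a2, listed as Gm4794, by 0.85 ± 0.34 (adjusted p = 0.110). In all, 5 of 9 tested genes beside the 7 were called higher and 0 lower (4.94% and 3.92% of all genes), with a median log2 difference of 0.85. Sult2a3 to Sult2a6, which are among these 5, share sequence within the cluster and varied together with Sult2a1 across KO mice. Sult2a3 and Sult2a4 also passed the filter on low counts largely through KO libraries, so nothing is read from the count of 5. The remaining 5 of the 14 in the table, Sult2b1, Sult4a1, Sult6b1, Sult6b2 (listed as Gm766) and the pseudogene Sult2a-ps1 (listed as Gm15436), did not pass the filter on low counts.

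Sult1d1 (ENSMUSG00000029273, mm9 chromosome 5, 87983670 to 87998052) lies next to Sult1e1. At ZT0 it stood at 197, 296, 228 and 196 CPM in KO livers, against 104, 134, 107 and 119 CPM in WT livers. At ZT12 it stood at 161, 343, 194 and 192 CPM in KO livers and at 139, 199, 224 and 226 CPM in WT livers. At ZT20 the KO livers had 247, 270, 205 and 207 CPM and the WT livers 122, 98.7, 165 and 127 CPM. The genotypes were apart at ZT0 and ZT20 and overlapped at the other 4 times, most at ZT12, where 1 KO mouse exceeded the highest WT mouse. KO minus WT was 0.98 ± 0.19 at ZT0, 0.17 ± 0.19 at ZT12 and 0.86 ± 0.19 at ZT20 on the log2 scale (SE), with an average of 0.53 ± 0.08.

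The course over the day differed between genotypes for Sult1d1. In KO livers the fitted log2 amplitude was 0.15 ± 0.08 (SE) with a peak at ZT19.0 (edgeR adjusted p = 0.425), and no rhythm was called. In WT livers a 24 h rhythm was called, with a log2 amplitude of 0.30 ± 0.08, a peak at ZT11.5 and a peak-to-trough ratio of 1.52 (adjusted p = 0.00465). The difference between the 2 rhythms was called (adjusted p = 0.0234), as it was for 22.8% of all genes. It stayed under 0.05 in all 48 fits that left out 1 mouse, from 0.00127 without KO mouse 20 to 0.0477. Within the 11 cages that held 1 KO and 1 WT mouse killed at the same time, with cage as a block, its adjusted p was 0.0646 (22 mice). The genotype by time interaction, which does not assume a 24 h curve, gave an adjusted p of 0.0897, and of 0.00776 without KO mouse 20.

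Sult1a1 (ENSMUSG00000030711, mm9 chromosome 7, 133816379 to 133819946) also differed between genotypes in its 24 h rhythm. At ZT4 it had 633, 503, 495 and 575 CPM in KO livers, against 349, 250, 395 and 269 CPM in WT livers. At ZT16 it had 405, 441, 389 and 578 CPM in KO livers and 373, 467, 590 and 453 CPM in WT livers. The genotypes were apart at ZT0, ZT4 and ZT8, with KO above WT, and overlapped at ZT12, ZT16 and ZT20. In KO livers the log2 amplitude of the 24 h fit was 0.13 ± 0.08 (SE, edgeR adjusted p = 0.540). In WT livers the rhythm was called, with a log2 amplitude of 0.33 ± 0.08 and a peak at ZT14.8 (adjusted p = 0.00325). The difference between the rhythms was called (adjusted p = 0.0150), and it stayed under 0.05 in all 48 fits that left out 1 mouse (0.00286 to 0.0328). Within the 11 cage pairs it was not called (adjusted p = 0.662). The genotype by time interaction had an adjusted p of 0.113, and of 0.0303 without KO mouse 21. KO minus WT averaged 0.39 ± 0.08 on the log2 scale (SE), and 0.27 with body weight in the model. Of its 1507 exonic bases 61 overlap Sgf29 on the other strand, where reads of the 2 genes cannot be separated with a library that does not record strand.

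**Figure D5:**
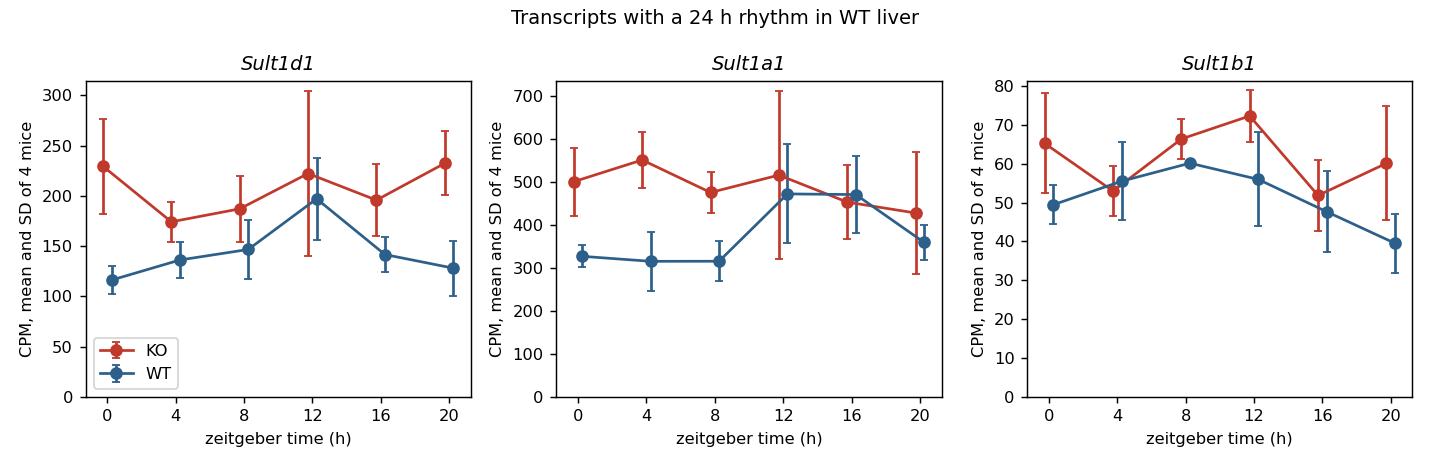
Mean CPM and SD of 4 mice at each zeitgeber time for the 3 genes with a called 24 h rhythm in WT livers, KO in red and WT in blue. Sult1d1 is closest between genotypes at ZT12, with means of 222 CPM in KO and 197 CPM in WT; Sult1a1 in WT has means of 327, 316 and 316 CPM from ZT0 to ZT8, and 473 and 471 CPM at ZT12 and ZT16.

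Sult1b1 (ENSMUSG00000029269, mm9 chromosome 5, 87942364 to 87967220), which sulfates thyroid hormones, had small differences in level. At ZT8 the KO livers had 61.5, 69.1, 62.6 and 72.4 CPM and the WT livers 59.8, 60.1, 61.1 and 59.8 CPM. At ZT20 the KO livers had 63.2, 42.8, 56.6 and 78.1 CPM and the WT livers 39.7, 31.1, 37.9 and 49.5 CPM. The groups were apart at ZT0 and ZT8 and overlapped at the other times, and at ZT4 no KO mouse was above the highest WT mouse. KO minus WT averaged 0.26 ± 0.07 on the log2 scale (SE), and 0.21 with body weight in the model. Its KO rhythm was not called (log2 amplitude 0.08 ± 0.07, edgeR adjusted p = 0.668). Its WT rhythm was called, with a log2 amplitude of 0.27 ± 0.07 and a peak at ZT7.83 (adjusted p = 0.00765), but the 2 rhythms were not shown to differ (adjusted p = 0.333).

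Sult5a1 (ENSMUSG00000000739, mm9 chromosome 8, 125666747 to 125682215) had its genotypes apart at ZT0 alone. There it had 48.7, 81.8, 46.5 and 58.8 CPM in KO livers and 35.7, 39.3, 45.8 and 18.5 CPM in WT livers. At ZT20 it had 50.2, 70.2, 34.9 and 66.5 CPM in KO livers, inside the range of WT livers apart from mouse 38 (47.3, 77.8, 43.2 and 57.1 CPM). KO minus WT averaged 0.27 ± 0.10 on the log2 scale (SE), between -0.14 at ZT16 and 0.76 at ZT0. No rhythm was called (edgeR adjusted p = 0.468 in KO livers and 0.263 in WT livers).

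Across the 7 genes, 1 had a called 24 h rhythm in KO livers, where 0.984% of all genes did, and 3 had one in WT livers, where 48.1% did. The genotype by time interaction was called for 0 of the 7 by edgeR, with 20.7% of all genes called; 2 of the 7 had an unadjusted p under 0.05. DESeq2 called 1 (Sult1d1, adjusted p = 0.0456) and limma voom with cage as a random block 0, with 2 at an unadjusted p under 0.05. Differences among times were called for 1 gene in KO livers (Sult1e1) and for 3 genes in WT livers (Sult1d1, Sult1a1 and Sult1b1; 47.9% of all genes).

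Sult1e1 and Sult1d1 were related across KO mice. After removal of group means r was 0.775 and rho 0.68 over 24 KO mice (two-sided permutation p of 0.0009 for r, 0.0168 after adjustment over 56 relations; 0.033 for rho after adjustment), against r of 0.275 and rho of 0.0243 over 24 WT mice. Without the 2 KO mice farthest from the median of Sult1e1, r was 0.607, and without mouse 20 alone 0.667. Without the 4 libraries farthest from their groups r was 0.570 and the relation no longer passed (adjusted p = 0.262). Within the pairs of times r was 0.784 for ZT4 with ZT8, 0.955 for ZT12 with ZT16 and 0.274 for ZT20 with ZT0 (8 KO mice each). Whether r differed between KO and WT was not tested. KO mouse 20 had the highest Sult1e1 (130 CPM) and Sult1d1 (343 CPM) and the lowest Sult2a1 and Sult2a2 of all KO mice. Sult1e1 and Sult2a2 had r of -0.64 across KO mice, which did not pass the adjustment (permutation p = 0.0124, adjusted p = 0.139). The 56 relations also held body weight against each of the 7 genes, and 0 of these passed in either genotype. For Sult1a1, r with body weight was -0.36 across KO mice (permutation adjusted p = 0.658) and -0.54 across WT mice (0.139). Without the 4 farthest libraries it was -0.76 over 20 KO mice and passed (permutation adjusted p = 0.00299).

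The sequence before the start of Sult1e1 and of Sult1d1 is shown because these neighbours moved together across KO mice. RefSeq (GRCm38.p6) promoters were found for 5 of the 7 genes, and the 250 bases before the start are printed 5′ to 3′ on the strand of the gene. Capitals mark matches to the motifs searched on both strands, which were the E-box CACGTG bound by BMAL1 and CLOCK, the D-box forms TTATGTAA and TTACGTAA, the nuclear receptor motif AGGTCA, and TTCNNNGAA of STAT5.
Sult1e1, chr5:87591612-87591861, minus strand: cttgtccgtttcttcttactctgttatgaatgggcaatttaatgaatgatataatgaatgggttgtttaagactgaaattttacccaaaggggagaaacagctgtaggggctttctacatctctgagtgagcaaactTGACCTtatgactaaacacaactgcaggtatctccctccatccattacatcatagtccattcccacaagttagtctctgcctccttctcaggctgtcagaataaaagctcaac
Sult1d1, chr5:87569007-87569256, minus strand: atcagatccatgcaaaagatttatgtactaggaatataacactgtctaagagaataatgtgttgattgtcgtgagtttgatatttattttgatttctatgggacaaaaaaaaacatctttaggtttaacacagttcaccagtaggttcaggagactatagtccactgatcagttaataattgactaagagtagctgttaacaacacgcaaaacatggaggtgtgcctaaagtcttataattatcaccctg
The window of Sult1e1 held AGGTCA once, as its reverse complement, 113 bases before the start, and that of Sult1d1 held none of the motifs. No CACGTG was found in the windows of Sult1e1, Sult1d1, Sult1a1, Sult1b1 or Sult5a1; 6.02% of all 32851 promoter windows of this length hold one. AGGTCA occurs in 14.02% of them, TTCNNNGAA in 7.02%, TTATGTAA in 0.819% and TTACGTAA in 0.113%. Beside the Sult1e1 match, 1 of 2 Sult1b1 windows held AGGTCA. A match is no more than these letters, and the absence of one holds for this window alone.

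By Pearson's r of group-centred log2 CPM over 24 KO mice, among 9880 genes with at least 5 CPM, the genes most like Sult1e1 were Mxi1 (r = 0.811), Akr1c14 (0.786) and Extl1 (0.779). Over WT mice these r were -0.46, -0.32 and 0.294. For Sult2a1 they were Sult2a2 (0.947), Rhob (0.892) and Fam84b (0.850) in KO, with 0.970, 0.123 and 0.530 in WT. Vmp1 (0.806), Rnf217 (0.799) and Serinc3 (0.788) were most like Sult1d1 in KO, with 0.185, -0.53 and 0.473 in WT. Parp6 (0.787), Poc5 (0.745) and Dscr3 (0.734) were most like Sult5a1 in KO, with 0.371, -0.05 and -0.47 in WT. These are descriptions over mice that share libraries and scaling, with the best of 9880 genes picked.

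Of 11 tested genes for sulfate uptake and PAPS, 1 was called higher and 1 lower (4.94% and 3.92% of all genes), with a median log2 difference of -0.02. Papss1, a PAPS synthase, had 16.3 ± 3.85 CPM in KO livers and 12.2 ± 5.14 CPM in WT livers, on average 0.47 ± 0.11 higher on the log2 scale (SE, edgeR adjusted p = 0.00335). At ZT16 Papss1 was lower in KO livers, with means of 15.7 CPM in KO and 20.7 CPM in WT (log2 difference -0.40 ± 0.26, SE). Papss2, the other PAPS synthase, had 472 ± 81.2 CPM in KO livers and 473 ± 68.6 CPM in WT livers (log2 difference -0.0048 ± 0.07, adjusted p = 0.976). Slc13a4, a sulfate transporter, had 0.329 ± 0.163 CPM in KO livers and 0.666 ± 0.431 CPM in WT livers, a log2 difference of -0.85 ± 0.19 (adjusted p = 0.00198). The difference was largest at ZT12, with 0.276 ± 0.0851 CPM in KO livers and 1.13 ± 0.633 CPM in WT livers (SD, n = 4 each). Rhythms of this group were called by edgeR for 0 of 11 genes in KO livers, with 1 at an unadjusted p under 0.05, and for 7 in WT livers (0.984% and 48.1% of all genes); in KO livers DESeq2 and limma voom gave the same counts. For 7 of the 11 the difference between rhythms was called (22.8% of all genes). Slc35b2, which carries PAPS into the Golgi, had KO levels between 39.3 ± 2.44 CPM at ZT16 and 46.9 ± 6.74 CPM at ZT12, and WT levels between 29.4 ± 2.17 CPM at ZT16 and 57.1 ± 3.58 CPM at ZT8 (SD, n = 4 each). Its log2 amplitude in WT livers was 0.44 (edgeR adjusted p = 5.63e-09).

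Genes of neighbouring steps were counted over lists, beside 4.94% of all genes called higher in KO and 3.92% called lower. Of 10 sulfatase genes, whose products remove sulfate, 0 were called higher by edgeR and 1 lower (Arsa, -0.41 ± 0.07 on the log2 scale). Of 11 genes of sulfite and sulfide metabolism, 1 was called higher (Cdo1, which makes cysteine sulfinate, 0.30 ± 0.06) and 1 lower (Mpst, -0.21 ± 0.05). Of 17 other steroid-active enzymes 3 were called higher and 4 lower, among them Hsd17b6 at -1.88 ± 0.25, Akr1d1 at 0.31 ± 0.05 and Akr1c6 at 0.24 ± 0.05.

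Of 26 tested nuclear receptors and factors named as regulators of sulfotransferase genes, edgeR called 0 in the comparison averaged over times (8.86% of all genes). At an unadjusted p under 0.05 there were 11. DESeq2 also called 0, with 12 at an unadjusted p under 0.05, and limma voom 0, with 11. The share of all genes under that unadjusted threshold is not given here, so nothing is read from these counts. The smallest p values belonged to Rxra (-0.11 ± 0.04), Nr1i3 (0.18 ± 0.07) and Cux2 (1.15 ± 0.46 on the log2 scale, SE). In KO livers 1 of the 26, Nr5a2, had a called 24 h rhythm (0.984% of all genes), and in WT livers 19 had one (48.1% of all genes). The difference between rhythms was called for 12 of 26 (22.8% of all genes). Among those with a WT rhythm, Stat5b and Esr1, the estrogen receptor, had log2 amplitudes of 0.53 and 0.72 (edgeR adjusted p = 3.30e-10 and 1.83e-06).

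Because the Sult2a genes and Sult1e1 are known as female-biased in mouse liver, other sex-biased genes were counted in these males. These lists were chosen with earlier results of these data known, so their counts and medians are descriptions and support nothing. Of 26 tested female-biased genes outside the sulfotransferase family 12 were called higher in KO livers by edgeR and 0 lower (4.94% and 3.92% of all genes), with a median log2 difference of 0.95; Cyp3a41b, Cyp3a16 and Cyp2c69 had the smallest p values, with differences of 6.66 ± 0.69, 6.30 ± 0.67 and 2.03 ± 0.25. Of 25 male-biased genes 2 were called higher and 4 lower by edgeR, with a median of -0.16; DESeq2 called 7 in all and limma voom with the cage block 2; the smallest p values were those of Cyp2u1 (-0.79 ± 0.14), Hsd3b5 (1.86 ± 0.50) and Gstp1 (-0.37 ± 0.11). Among the 6 lists of cell type markers tested over several genes, members called by edgeR were Apoa1 of the hepatocytes, which was higher, and Kdr of the endothelium, which was lower. DESeq2 called 2 hepatocyte, 1 endothelial and 1 cholangiocyte marker. The shares of all genes above are those of edgeR, and none is given here for DESeq2 or limma voom. Of 8 Kupffer cell markers 0 were called by edgeR, DESeq2 or limma voom. For 6 of them the unadjusted p was under 0.05 with each tool, a threshold for which no share of all genes is given here. Their summed level was 595 to 1719 CPM in KO livers (median 1163) and 747 to 1463 CPM in WT livers (median 990.1), with a median log2 difference of 0.20, and their part in the results was not tested.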

How the data were processed

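Liver poly-A RNA libraries, which do not record strand, were made from 24 KO and 24 WT mice. Per the labels' protocols they were amplified by PCR; per the submitters' processing notes CASAVA and STAR 2.4.0f1 were used with build mm9. The authors deposited whole-number read counts per gene; how multi-mapped reads and gene models were handled, and the step that left nearly equal library totals, are not given in the sources used here. Reads carry no molecular identifiers, so limits cover counting error only.

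Counts were tested with edgeR 4.0.16 (R 4.3.3; filterByExpr with minimum count 10, TMM) in a model of 12 group means and a 24 h cosine model for each genotype. Adjusted p are Benjamini-Hochberg values over 14836 genes, and under 0.05 is called. Shares of all genes called are those of edgeR. No such share is given for unadjusted p, DESeq2 or limma voom, so their counts stand without one. CPM use TMM scaling, and log2 CPM a prior count of 2. Scripts were tested on simulated data. DESeq2 1.42.0 and limma 3.58.1 served as alternatives. Exon lengths and transcripts came from GENCODE M21 (GRCm38), used without conversion of mm9 coordinates. The 7 genes and all lists were chosen with earlier results of these data known. Genes named beside the 7 are, by list, called sulfotransferase, PAPS and regulator genes, up to 3 others with the smallest p, the 3 most like Sult1e1, Sult2a1, Sult1d1 and Sult5a1, and Arntl; Papss2, Slc35b2, Sult2a8, Stat5b, Esr1, Nr5a2, Apoa1 and Kdr were named after their values were seen. Alternatives tried were other scalings, no filter, DESeq2, body weight, cage as a random block, leaving out libraries and, added after the data were seen, 11 cage pairs of KO and WT mice.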

Additional observations from a re-analysis of the deposited data

Results flagged for a closer look

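In 84 groups of 4 mice (7 genes, 12 groups), 3 held a mouse far from the other 3 on the log2 CPM scale and 8 did on the CPM scale, which was added after the data were seen; chance flags about 1 in 20 such groups. On both scales, Sult1a1 had 419.6 CPM in WT mouse 40 at ZT20, against 335 to 345 CPM in the other 3 mice. Sult1b1 had 84.5 CPM in KO mouse 43 at ZT0, against 57.1 to 60.0 CPM in the others, and 70.5 CPM in WT mouse 2 at ZT4, against 48.6 to 51.6 CPM. KO mouse 43 is also among the 4 libraries farthest from their groups. On the CPM scale alone, Sult1e1 stood apart in KO mouse 20 at ZT12, with 130.3 CPM against 2.33 to 11.5 CPM. Sult2a1 did so in KO mouse 41 at ZT0 (43.5 CPM against 8.31 to 12.2 CPM), in KO mouse 37 at ZT20 (31.1 CPM against 0.442 to 4.94 CPM) and in WT mouse 19 at ZT12 (4.17 CPM against 0.153 to 0.607 CPM). Sult2a2 did so in WT mouse 11 at ZT8 (3.05 CPM against 0.0603 to 0.518 CPM).

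The 24 h rhythm differed between KO and WT livers for Sult1d1 (edgeR adjusted p = 0.0234) and for Sult1a1 (adjusted p = 0.015). Within 11 cage pairs neither difference was called, but this fit has fewer mice, spread unevenly over the times.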

How the results depend on the processing

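No mouse number occurs in more than 1 group, so the numbers pair no mice. In a fit chosen after seeing the data, 11 cages that held 1 KO and 1 WT mouse of the same time (22 mice) entered with cage as a replicate block. This paired fit called 4 of the 7 genes in the averaged comparison, against 6 over all mice, 0 for the rhythm difference, against 2 (Sult1d1 adjusted p = 0.0646, Sult1a1 0.662; 1 of 7 with an unadjusted p under 0.05), and 0 for the interaction (2 unadjusted). It has fewer mice, and 8 residual degrees of freedom for the rhythm difference. The cages were spread unevenly over the times, with fewest at ZT0, ZT4 and ZT16. A missing call in this fit therefore does not show that a difference is absent. Over all 14836 genes this paired fit called 196 in the averaged comparison, 425 for the rhythm difference and 39 for the interaction. Over all mice these counts were 1314, 3385 and 3064. Of the 42 pairs of gene and time, 13 were called as KO minus WT, against 8 with body weight in the model and 5 with cage as a random block in limma voom. The genotype by time interaction was called for 0 of the 7 genes, and for 1 with DESeq2 (Sult1d1), with body weight (Sult1a1) and without the 4 farthest libraries (Sult1d1). Time in KO and the 24 h rhythm in KO, called for 1 gene (Sult1e1), were called for 0 with that random block. The cause was not tested. No called difference changed sign in any fit. Leaving out 1 mouse at a time called 6 to 7 genes in the averaged comparison, 9 to 16 pairs of gene and time, 0 to 1 for the interaction, 2 to 4 for time in WT, 1 in every fit for time in KO, 3 in every fit for the WT rhythm, 0 to 1 for the KO rhythm and 2 in every fit for the rhythm difference. The KO rhythm of Sult1e1 lost its call in 5 of these 48 fits, without KO mice 5, 6, 14, 20 or 34 (adjusted p 0.0538 to 0.0643). At 20 reads or fewer, as for Sult1e1 in WT, depth limits the size of a fold.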
